A study of Mus musculus with 4 samples.

Results

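The genes described here are 10 transcription factors and RNA-binding proteins that mark pluripotent mouse cells: Pou5f1, Sox2, Foxd3, Sall1, Sall4, Zfp42, Zfp296, Utf1, L1td1 and Dppa5a. They were chosen by gene symbol as core pluripotency and Sall genes, and are 10 of the 43496 Ensembl genes in the deposited count table. All 10 passed the filter on low counts, among 15735 genes tested. RNA was sequenced from mouse E14 embryonic stem cells kept on gelatin in medium with serum and LIF. One group of 2 libraries came from cells transfected with a pSuper puro plasmid carrying an shRNA against MERVL, an endogenous retrovirus that the labels also call MuERVL. The other group of 2 libraries came from cells labelled as a random shRNA knockdown, with a wild type genotype. Both groups are labelled with the strain name 12910la and share the puromycin treatment, 1 µg/ml for 4 days starting 24 h after transfection. Each library is a pool of selected cells, the column headings name a single hairpin against MERVL, and the labels do not say whether replicates were separate cultures. P-values here thus cover the spread between these 4 libraries only, and that spread could be technical. The comparison asks how the levels of these genes differ after shRNA against MERVL.

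Embryonic stem cells hold their state through a circuit in which Oct4, the product of Pou5f1, and Sox2 bind DNA side by side, at an octamer and a Sox motif, and maintain their own genes as well as many others. Sall1 and Sall4 are spalt-family zinc finger proteins that recruit the NuRD histone deacetylase complex, and Sall4 associates with Oct4 in these cells. Zfp42, also called Rex1, is a zinc finger protein of the YY1 family and a classical marker of the undifferentiated state, and in mouse embryonic stem cells it has been reported to restrain some endogenous retroviruses. L1td1 is an RNA-binding protein whose gene arose from a LINE-1 retrotransposon open reading frame.

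The start-site sequences of 3 of the genes are shown because of what they hold for Oct4 and because Sall1 differed most between the groups. RefSeq start-site windows on GRCm38.p6 were found for 8 of the 10 genes, in 11 windows, and the 250 bases before each start were searched on both strands. The octamer ATTTGCAT, in capitals below, was found before Zfp42, where its first base lay 186 bases before the RefSeq start, and before Zfp296, 111 bases before the start. It occurs in 1.60% of the 32851 windows in that table. The Sall1 window, which ends at the annotated start of the gene, has no octamer. Each is written 5′ to 3′ on the strand of its gene.
Zfp42, chr8:43307010-43307259, minus strand: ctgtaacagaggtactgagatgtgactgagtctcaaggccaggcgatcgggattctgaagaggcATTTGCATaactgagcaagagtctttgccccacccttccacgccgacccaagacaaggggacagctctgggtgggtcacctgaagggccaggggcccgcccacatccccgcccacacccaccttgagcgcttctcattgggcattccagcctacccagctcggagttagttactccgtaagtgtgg
Zfp296, chr7:19577037-19577286, plus strand: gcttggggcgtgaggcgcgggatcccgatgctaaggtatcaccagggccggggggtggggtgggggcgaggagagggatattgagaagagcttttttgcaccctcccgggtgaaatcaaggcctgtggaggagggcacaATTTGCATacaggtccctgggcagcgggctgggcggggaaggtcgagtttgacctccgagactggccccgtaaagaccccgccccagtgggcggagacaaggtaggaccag
Sall1, chr8:89044163-89044412, minus strand: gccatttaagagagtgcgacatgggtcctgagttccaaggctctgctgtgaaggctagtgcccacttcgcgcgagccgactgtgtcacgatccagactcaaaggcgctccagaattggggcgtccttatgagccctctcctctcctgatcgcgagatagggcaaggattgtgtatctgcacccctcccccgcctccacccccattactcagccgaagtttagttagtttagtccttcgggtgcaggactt
The Sox motif CATTGTT, held by 3.29% of windows, was found for 1 gene, in a Pou5f1 window whose start lies 2789 bp inside the annotated gene. The GC box GGGCGG, held by 32.7% of windows, was found in 7 of the 11 windows, for 6 of the 8 genes. Such matches describe letters and are not evidence of binding.

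Libraries held 16067854 and 14570056 estimated counts with MERVL shRNA, and 15496921 and 11628887 with random shRNA. RNA of the targeted element, summed over all 2277 copies, stood at 1163 and 574 CPM (counts scaled to library size, with edgeR's TMM method) with MERVL shRNA, against 4662 and 1434 CPM with random shRNA. Genes of the 2-cell-like state followed the same order: 8 of the 10 listed markers were in the table, and they summed to 308 and 170.4 CPM against 1500.1 and 413 CPM. The 9 markers of pluripotent stem cells summed to 3906 and 4105 CPM with MERVL shRNA and 3780.4 and 4182 CPM with random shRNA. Its largest members differed in opposite directions between random shRNA replicates 1 and 2, Tdgf1 at 820 and 1974 CPM and Nanog at 1266 and 803 CPM. Of the 9, 2 were higher without overlap between the groups (23.0% of all genes) and 2 lower (21.8%). Of 12 fibroblast markers, 6 were below 1 CPM in every library, including Col1a2, Col3a1, Dcn and Postn. Of 6 tested, 4 were lower without overlap and 1, Fn1, was higher (23.0% of all genes). Among the 4 lower ones, Thy1 stood at 8.67 and 6.88 CPM with MERVL shRNA, against 23.1 and 28.8 CPM. Vim, also lower, stood at 160.1 and 172 CPM, against 232 and 206 CPM. The list summed to 668 to 672 CPM with MERVL shRNA and 717 to 726 CPM with random shRNA. Most of it came from Fn1, at 491 and 478 CPM with MERVL shRNA, against 459 and 466 CPM. Of 10 trophectoderm markers, Cdx2, Elf5, Gata3 and Hand1 were below 1 CPM throughout, and of 6 tested, 4 were lower without overlap, such as Esx1 (5.09 and 3.94 against 9.76 and 8.80 CPM). That list summed to 49.3 and 51.2 CPM, against 53.3 and 82.7 CPM. Lower without overlap were 21.8% of all genes. No marker of either list passed the edgeR test, and without adjustment 2 of each list were lower at a p under 0.05 (6.35% of all genes). Of 8 mesendoderm markers, 7 were below 1 CPM in every library, among them T, Mixl1, Gsc and Mesp1. The other, Eomes, stood at 6.69 and 8.16 CPM with MERVL shRNA, against 9.31 and 14.5 CPM. Further lists were mixed. Without overlap, 2 of 4 neuroectoderm markers tested were higher and 1 lower. Of 11 primitive endoderm markers tested, 1 was higher and 2 lower. Of 5 formative or primed markers tested, 1 was higher and 2 lower. EdgeR called 0 in any of these lists. The part of such cells in the results below was not tested. In these bulk samples, fewer cells of a type and less RNA per cell cannot be told apart.

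The 10 genes were abundant, but their levels spanned a wide range. By mean CPM they lay between the 74.5th and the 99.7th percentile of genes tested, and their estimated counts ran from 290.5 to 36902 per library. At the lowest of these, Foxd3 in random shRNA replicate 2, counting error alone is 5.87%. Per kilobase of summed exon length, Dppa5a was highest in every library, at 3504 and 4229.6 CPM per kilobase with MERVL shRNA and 2401 and 3501 with random shRNA. Pou5f1 came next (621 and 700.1 against 573 and 553 CPM per kilobase), then Zfp42 (532 and 499 against 486 and 408). The libraries of Dppa5a, Pou5f1 and Zfp42 did not overlap each other on this scale. Sox2 (343 and 341 against 269 and 328 CPM per kilobase) and Utf1 (278 and 296 against 324 and 298) did overlap, so their order is not settled. L1td1 lay below both and clear of Sall1 (238 and 220.2 against 182 and 173 CPM per kilobase). Sall1, Sall4, Zfp296 and Foxd3 formed the low end, from 10.5 to 56.8 CPM per kilobase, and each pair of neighbours in that order overlapped. With the longest transcript as the length in place of summed exons, Pou5f1 reached 1090.1 ± 92.6 CPM per kilobase with MERVL shRNA (SD, n = 2) in place of 660.5 ± 56.1, with its place in the order unchanged, while Zfp296 moved above Sall4 in the MERVL shRNA means, as it already was in the random shRNA means.

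**Figure D1:**
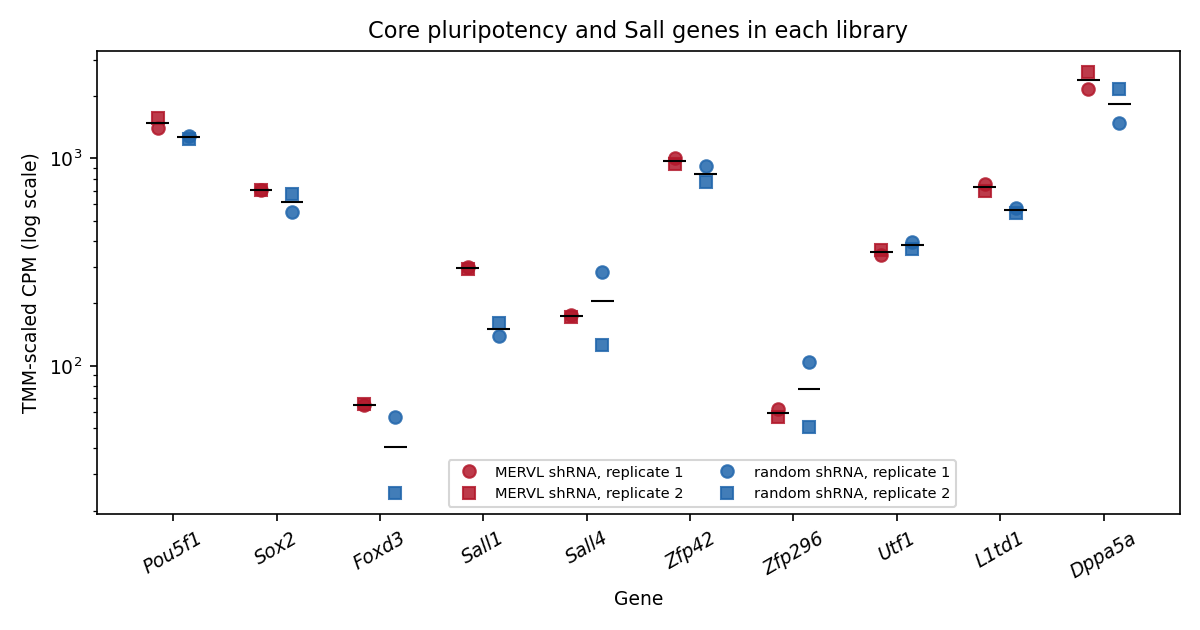
TMM-scaled CPM (log axis) of the 10 genes in each library, with MERVL shRNA in red on the left of each pair and random shRNA in blue on the right; circles are replicate 1, squares replicate 2, and bars the group means. Sall1 stands apart, at 299 and 292 CPM against 139 and 162 CPM, while the random shRNA libraries of Foxd3, Sall4 and Zfp296 lie far from each other.

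None of the 10 genes passed the edgeR quasi-likelihood test after Benjamini-Hochberg adjustment over all features, where 0.00636% of genes were called higher and 0% lower. Without adjustment, Sall1 and L1td1 had a p under 0.05 and were higher, against 4.87% of all genes, and none of the 10 was lower, against 6.35%. DESeq2 called 1 of the 10 higher, Sall1 (0.413% of all genes called higher), and limma-voom called 0. By position alone, 7 of the 10 had both MERVL shRNA libraries above both random shRNA libraries (23.0% of all genes, and 27.7% of the 4010 genes at least as abundant as the lowest of the 10). Utf1 was the single gene with both below (21.8% of all genes). Scaling by total counts, which moved the median of all genes by less than 0.1 on the log2 scale, left 4 of the 7 (17.9% of all genes): Pou5f1, Foxd3, Sall1 and L1td1. The median log2 fold change of the 10, MERVL shRNA over random shRNA, was 0.22, against 0.00 over all genes tested, and 7 were positive where 50.5% of all genes were. For 7 of the 10 genes the gap between the random shRNA libraries exceeded the difference between the groups. The share of all genes with such a gap was not computed. The median absolute log2 gap of that pair was 0.27 over the 10 genes. Over all genes tested it was 0.28, on log2(CPM + 1).

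**Figure D2:**
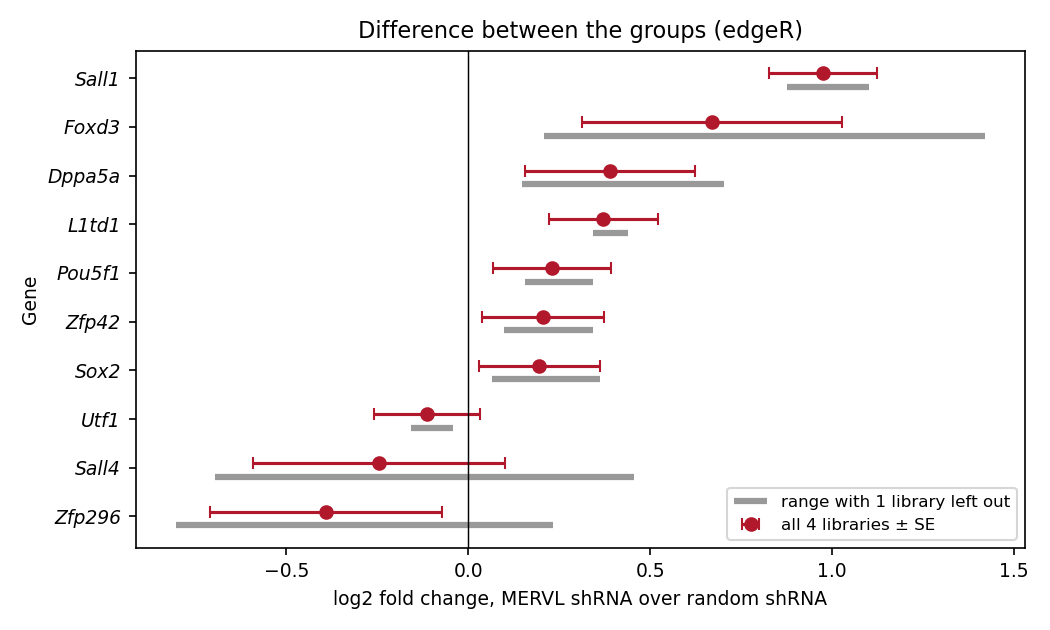
Log2 fold change of each gene, MERVL shRNA over random shRNA, with its standard error in red, and in grey the range of that value with any 1 library left out. Sall1 stays between 0.88 and 1.10, whereas Sall4 and Zfp296 cross 0 and Foxd3 runs from 0.21 to 1.42.

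Sall1 (ENSMUSG00000031665, chromosome 8, 89027235 to 89044162, minus strand, 4 exons) was 1.96-fold higher by mean CPM with MERVL shRNA, the largest difference among the 10, without passing the main test. Sall1 stood at 299 and 292 CPM in the MERVL shRNA libraries, against 139 and 162 CPM in the random shRNA libraries. The groups were well apart: their means were 295 ± 4.76 CPM and 150.4 ± 15.8 CPM (SD, n = 2 each). The log2 fold change was 0.97 ± 0.15 (SE; edgeR unadjusted p = 0.000458, adjusted p = 0.281), rank 26 by p among 15735 genes. Its call depended on the test: DESeq2 called it (0.98, adjusted p = 3.77e-05), as did edgeR with no filter on low counts (0.99, adjusted p = 7.90e-06, with 1.05% of all genes called higher), but limma-voom did not (0.98, adjusted p = 0.299). Its estimated counts were whole numbers in every library, as were those of Sox2 and Utf1, while those of the other 7 genes were not. No other annotated gene overlaps Sall1.

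The other spalt gene, Sall4 (ENSMUSG00000027547, chromosome 2, 168748332 to 168767943, minus strand), did not follow Sall1. Sall4 shares 526 bp of exon with Gm14261 on the other strand, which had 1.43 to 3.61 CPM. Sall4 stood at 175 and 171 CPM with MERVL shRNA, which lay between the random shRNA values of 283 and 126 CPM. The random shRNA libraries differed 2.24-fold, and the log2 fold change of -0.25 ± 0.35 (edgeR adjusted p = 0.814) turned to 0.46 without random shRNA replicate 1. Per kilobase, the ratio of Sall1 to Sall4 within a library, which no scaling of libraries can alter, was 1.80 in both MERVL shRNA libraries, against 0.517 and 1.34 in random shRNA replicates 1 and 2. The groups did not overlap (exact permutation test, 2-sided p = 0.333, the smallest that 2 against 2 libraries allow). The share of all genes whose ratio to Sall4 separates the groups was not computed. Sall1 made up 61.7% and 61.5% of the summed per-kilobase level of Sall1, Sall2, Sall3 and Sall4 with MERVL shRNA, and 32.8% and 56.0% with random shRNA. Sall3, a further paralog, was low, at 19.0 and 19.9 CPM against 12.5 and 3.27 CPM (log2 fold change 1.28 ± 0.52, edgeR adjusted p = 0.365). Sall2 did not separate the groups (5.91 and 6.31 against 7.15 and 4.53 CPM).

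**Figure D3:**
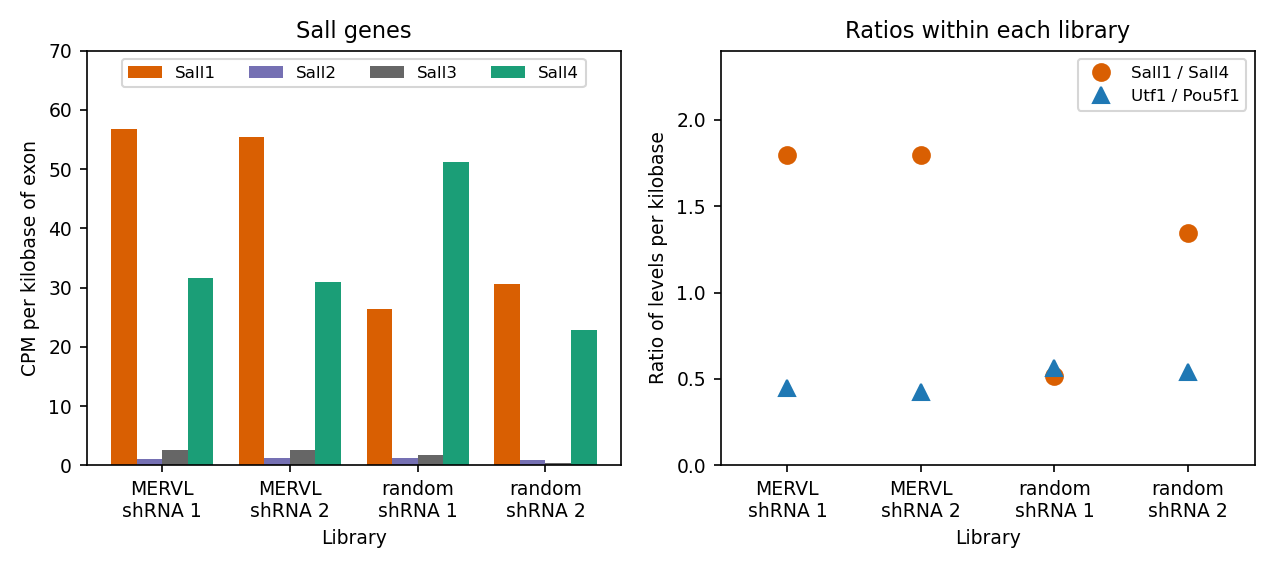
Left, CPM per kilobase of exon of the spalt genes in each library; right, ratios of per-kilobase levels within each library, for Sall1 over Sall4 and Utf1 over Pou5f1. Sall1 exceeds Sall4 in both MERVL shRNA libraries and in random shRNA replicate 2 but not in random shRNA replicate 1, and Utf1 over Pou5f1 is lower in both MERVL shRNA libraries, as are such ratios for 42.3% of all genes.

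Pou5f1 and Sox2, the factors at the centre of the circuit, were slightly higher with MERVL shRNA by differences that did not pass the test. Pou5f1 (ENSMUSG00000024406, chromosome 17, 35506018 to 35510772) stood at 1396 and 1574 CPM, against 1288 and 1244 CPM. The log2 fold change was 0.23 ± 0.16 (edgeR adjusted p = 0.604), with both MERVL shRNA libraries above both random shRNA libraries. The antisense gene Gm19553 shares 317 bp of exon with it and had 175 to 201 CPM with MERVL shRNA and 152 to 168 CPM with random shRNA. No source used here says whether counting used strand, so reads of the pair cannot be told apart. Sox2 (ENSMUSG00000074637, chromosome 3, 34650405 to 34652461, a single exon) stood at 705 and 701 CPM, against 553 and 674 CPM. Its log2 fold change was 0.20 ± 0.17 (edgeR adjusted p = 0.668), and with total-count scaling random shRNA replicate 2 lay above MERVL shRNA replicate 2. Relative to Pou5f1 in the same library, Sox2 did not separate the groups (0.552 and 0.486 with MERVL shRNA, 0.469 and 0.592 with random shRNA, per kilobase).

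Foxd3 (ENSMUSG00000067261, chromosome 4, 99656299 to 99658622), a forkhead factor needed to maintain pluripotent cells of the mouse embryo, was the least steady of the 10 among random shRNA libraries. Foxd3 stood at 64.4 and 65.3 CPM with MERVL shRNA, against 56.8 and 24.4 CPM with random shRNA. The MERVL shRNA libraries agreed closely and lay above both others, but the random shRNA libraries differed 2.33-fold. The log2 fold change of 0.67 ± 0.36 did not pass (edgeR adjusted p = 0.473). It was 1.42 without random shRNA replicate 1 and 0.21 without random shRNA replicate 2, so its size rests on which of these libraries is kept. With no filter on low counts edgeR called it higher (0.69, adjusted p = 0.00643). Foxd3 shares 89 bp of exon with the miRNA gene Gm23366 on the same strand, which had 0.0957 to 0.709 CPM.

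Of the zinc finger genes, Zfp42 was slightly higher and Zfp296 varied with the random shRNA libraries. Their windows printed above each hold an octamer, and a link between it and these levels was not tested. Zfp42 (ENSMUSG00000051176, chromosome 8, 43295063 to 43306980) stood at 1001 and 938 CPM with MERVL shRNA, against 915 and 767 CPM. The groups did not overlap on TMM-scaled values but did with total-count scaling, and the log2 fold change was 0.20 ± 0.17 (edgeR adjusted p = 0.655). Per kilobase, Zfp42 was 0.857 and 0.712 of Pou5f1 with MERVL shRNA and 0.849 and 0.737 with random shRNA, with no separation. Zfp296 (ENSMUSG00000011267, chromosome 7, 19577287 to 19580656), which encodes a zinc finger protein enriched in pluripotent cells, stood at 62.0 and 56.4 CPM with MERVL shRNA, between the random shRNA values of 105 and 50.6 CPM. Its log2 fold change of -0.39 ± 0.32 (edgeR adjusted p = 0.654) turned to 0.23 without random shRNA replicate 1. Zfp296 shares 263 bp of exon with Gemin7 on the other strand, which had 36.3 to 45.7 CPM.

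Zfp296 and Sall4 had the most alike patterns of any pair among the 10, with a Euclidean distance of 0.20 between their centred log2(CPM + 1) values over the 4 libraries. Both, with Foxd3, were over 2-fold higher in random shRNA replicate 1 than in replicate 2. In that library pair the 2-cell-like markers summed to 1500.1 and 413 CPM. With MERVL shRNA those markers were lower, at 308 and 170.4 CPM, while Sall4 and Zfp296 lay between their random shRNA values and Foxd3 above both. The part of 2-cell-like cells in the result was not tested. The genes nearest to Sall4 over the 4 libraries were Id3 (distance 0.05), Atp2a2 (0.08) and Erf (0.09). Those nearest to Zfp296 were Dusp5 (0.05), Ston2 (0.06) and Fam53c (0.08).

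Among the chromatin and RNA-binding markers, L1td1 and Dppa5a were higher with MERVL shRNA and Utf1 was lower, and none passed the test. L1td1 (ENSMUSG00000087166, chromosome 4, 98726734 to 98738480) stood at 755 and 699 CPM, against 577 and 548 CPM. The gap between the groups exceeded the gap within either, and the log2 fold change was 0.37 ± 0.15 (edgeR unadjusted p = 0.0459, adjusted p = 0.361). With a library left out the value stayed between 0.34 and 0.44. With either random shRNA library left out it passed (adjusted p = 0.0342 and 0.0488), with 7.03% of genes called higher without random shRNA replicate 1 and 15.6% without random shRNA replicate 2. L1td1 lies 917818 bp from Foxd3 on the same chromosome.

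Dppa5a (ENSMUSG00000060461, chromosome 9, 78367052 to 78368177), a KH-domain protein that binds RNA, stood at 2169 and 2618 CPM with MERVL shRNA, against 1486 and 2167 CPM. MERVL shRNA replicate 1 and random shRNA replicate 2 were almost equal, and with total-count scaling the groups overlapped. The log2 fold change was 0.39 ± 0.23 (edgeR adjusted p = 0.528), and it ran from 0.15 to 0.70 with a library left out. Its neighbour Ooep, a related KH-domain gene of the oocyte, did not separate the groups (92.3 and 95.1 against 81.9 and 116 CPM). The genes nearest to Dppa5a in pattern were Rpl36, a ribosomal protein gene (distance 0.03), Ablim1 (0.04) and Ifitm2 (0.04).

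Utf1 (ENSMUSG00000047751, chromosome 7, 139943789 to 139945112), a chromatin-bound factor and an early known target of Oct4 and Sox2, stood at 341 and 363 CPM with MERVL shRNA, against 397 and 365 CPM. The MERVL shRNA replicate 2 and random shRNA replicate 2 values were almost equal, and the log2 fold change was -0.11 ± 0.15 (edgeR adjusted p = 0.792). Relative to Pou5f1 in the same library, the per-kilobase ratio of Utf1 was 0.448 and 0.423 with MERVL shRNA, against 0.565 and 0.538 with random shRNA. That log2 difference was -0.34 (exact permutation test, 2-sided p = 0.333, the smallest possible). A lower ratio to Pou5f1 without overlap was common, at 42.3% of all genes, so that of Utf1 is near the background. Of the other 8 ratios to Pou5f1, that of Sall1 was the one without overlap, in the direction that 7.13% of all genes had. Sall1 was 0.0914 and 0.0792 of Pou5f1 with MERVL shRNA, against 0.0461 and 0.0555 with random shRNA.

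Other genes of the pathway gave no call. Of 24 further genes of the Oct4 and Sox2 circuit, 23 were tested, 19 had a positive and 4 a negative log2 fold change, and edgeR called 0 in either direction. Their median was 0.19, and 11 had both MERVL shRNA libraries above both random shRNA libraries (23.0% of all genes) and 2 both below (21.8%). Without adjustment, 4 of them were higher at a p under 0.05 (4.87% of all genes) and 1 was lower (6.35%). The smallest p belonged to the growth factor gene Fgf4 (280.0 and 284 against 176 and 192 CPM, log2 fold change 0.61 ± 0.14), the nuclear receptor gene Nr0b1 (1.07 ± 0.25) and the Krüppel-like factor gene Klf5 (0.55 ± 0.15), each with an edgeR adjusted p of 0.329. Nanog, the homeobox factor of the circuit, stood at 1034 and 1086 CPM, between the random shRNA values of 1266 and 803 CPM. Earlier results of these data already showed most of this list, so it is no independent support.

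Protein partners of Oct4 and Sall4, among them the NuRD subunits through which spalt proteins act, showed no common direction. Of 28 tested, 15 were positive and 13 negative with a median of 0.03, edgeR called 0 in either direction, and without adjustment 1 was higher at a p under 0.05 (4.87% of all genes). That gene was Hdac2, a histone deacetylase of NuRD (254 and 271 against 181 and 205 CPM, log2 fold change 0.44 ± 0.15, edgeR adjusted p = 0.329). Next were Trim24 (0.37 ± 0.15) and the NuRD subunit Mta1 (-0.26 ± 0.13).

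Paralogs of the 10 genes were mostly low. Of 23, 7 were below 1 CPM in every library and 16 were tested, 8 with a positive and 8 with a negative value and a median of -0.03. EdgeR called 0, while without adjustment 4 had a p under 0.05, all of them higher (4.87% of all genes were higher and 6.35% lower). These were the POU gene Pou2f3, the neural SoxB1 gene Sox1, the forkhead gene Foxd1, and Sall3. Pou2f3 stood at 44.7 and 51.6 CPM with MERVL shRNA, against 20.0 and 15.2 CPM (log2 fold change 1.45 ± 0.19, edgeR adjusted p = 0.211). Sox1 stood at 12.9 and 13.4 CPM, against 5.23 and 3.27 CPM (1.62 ± 0.29, edgeR adjusted p = 0.283). Yy1, the paralog of Zfp42, had 108 and 106 CPM, against 122 and 88.8 CPM.

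Genes whose pattern over the 4 libraries was most like that of Sall1, among 8922 named genes with a mean of at least 10 CPM, were Agtpbp1, Apoe and Sh3gl2 (Euclidean distances 0.11, 0.11 and 0.12). Apoe, which encodes the lipid carrier apolipoprotein E, stood at 811 and 839 CPM with MERVL shRNA, against 395 and 490.1 CPM. Those nearest to Pou5f1 were Gna11, Poc1a and Colgalt1, all within 0.03. Those nearest to Sox2 were E2f2, Cdca3 and Vamp2, again within 0.03. For Foxd3 the nearest was farther away, Gbx2 at 0.24.

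The authors' normalized scores gave another picture of the same libraries, in which the random shRNA pair is nearly equal. Across genes with a mean score of at least 1, the median absolute gap between the random shRNA libraries was 0.03 on the log2(score + 1) scale. Across genes tested with edgeR, that gap was 0.28 on log2(CPM + 1). Between the MERVL shRNA libraries the median gap was 0.15 for scores and 0.12 for CPM. The sets of genes and the size of the values differ between these scales. Foxd3 had scores of 958 and 951 with MERVL shRNA, against 548 and 503 with random shRNA, whereas its random shRNA CPM values differed 2.33-fold. Sall4 had scores of 2605 and 2493, against 2663 and 2677. Sall1 had scores of 4214 and 4169, against 2303 and 2097. In a limma test on log2(score + 1), 4 of the 10 genes were called higher (13.7% of all genes) and 0 lower (14.1%): Sall1 (0.93, adjusted p = 0.0244), Foxd3 (0.86, adjusted p = 0.0244), L1td1 (0.35, adjusted p = 0.0299) and Sox2 (0.16, adjusted p = 0.0418). No source used here says how the scores were computed, and p-values from them take the random shRNA pair to be as close as the scores make it.

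**Figure D4:**
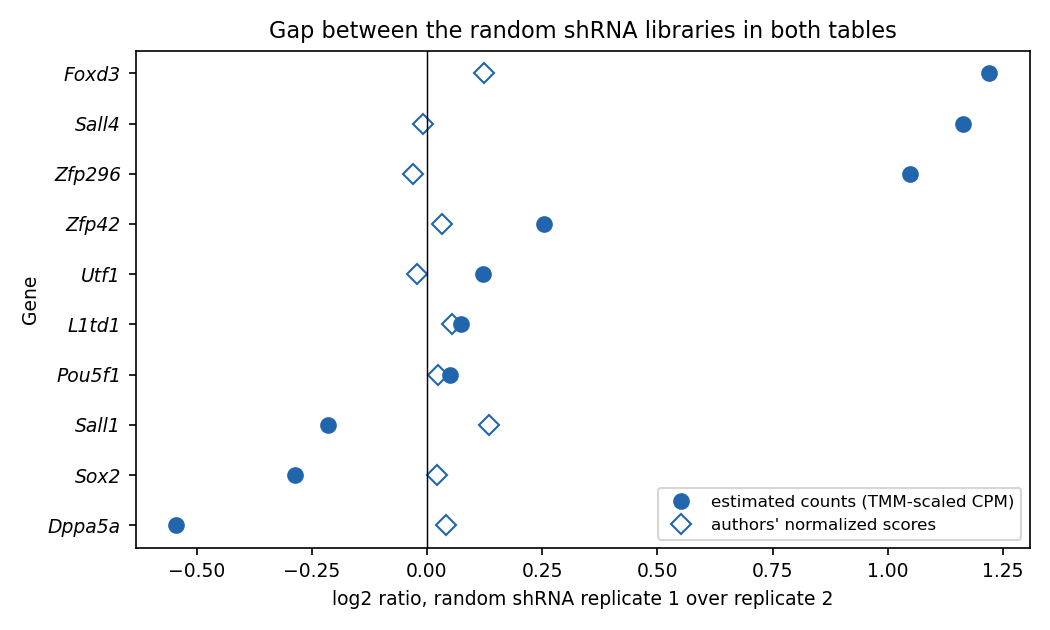
Log2 ratio of random shRNA replicate 1 over replicate 2 for each gene, from TMM-scaled CPM (filled circles) and from the authors' normalized scores (open diamonds). Foxd3, Sall4 and Zfp296 lie between 1.05 and 1.22 in CPM and between -0.03 and 0.12 in scores.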

How the data were processed

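RNA-seq libraries from 2 MERVL shRNA and 2 random shRNA samples of E14 cells were compared, grouped by sample title. The submitters' processing notes name Trim Galore, HISAT2 and the mm10 build, without versions or a counting program. The authors deposited estimated counts for 45773 features, 43496 of them Ensembl genes and 2277 single MERVL copies, with 19.1% to 20.8% of values not whole. They also deposited a normalized score for 17823 features. Symbols and positions came from GENCODE M21 (GRCm38), which matched 42329 identifiers.

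Estimated counts were rounded and tested with edgeR 4.0.16 (quasi-likelihood F test, TMM, filterByExpr, no replicate term) in R 4.3.3 over 16353 features, 2-sided, with Benjamini-Hochberg adjustment at 0.05. Each standard error is the fold change divided by the root of F. The test was run on simulated counts with known changes, and its power to call such changes is not reported here. Alternatives were other scalings and filters, DESeq2 1.42.0, limma-voom (limma 3.58.1), a replicate block, leaving out each library, and limma on scores with a mean of at least 1. All 10 genes are named. From each list, up to 3 genes of smallest p are named, and for similar patterns up to 3 nearest genes. Nanog, Tdgf1, Eomes, Yy1, Sall2, Sox1, Sall3, Foxd1, Ooep, Thy1, Vim, Fn1, Esx1 and the neighbouring genes were named after their values were seen. The genes and lists were chosen with earlier results of these data known.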

Additional observations from a re-analysis of the deposited data

How the results depend on the processing

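Scaling by RLE or upper quartile, a filter of 1 CPM in 2 libraries, limma-voom and testing Ensembl genes only left 0 of the 10 genes called. With no filter in edgeR 2 were called higher, Sall1 (0.99) and Foxd3 (0.69), where 1.05% of all genes were. With DESeq2 1 was called higher, Sall1 (0.98), where 0.413% of all genes were. On the scores with a pseudocount of 1 or 0.5, 4 were called higher: Sall1 (0.93), Foxd3 (0.86), L1td1 (0.35) and Sox2 (0.16). With a pseudocount of 1, 13.7% of all genes were called higher. Total-count scaling gave a median of 0.16 over the 10 genes. With it 4 in place of 7 had both MERVL shRNA libraries above both random shRNA libraries, a count added after seeing the data. The share of all genes was 17.9% in place of 23.0%.

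Replicate numbers are shared by the groups, but no label ties same-numbered libraries to a culture or day. Their deviations from the group means had a correlation of 0.04 across genes, so the numbers were not taken as a pairing. With a replicate block 1 gene was called higher, Sall1 (0.98, adjusted p = 0.0122), where 0.699% of all genes were.

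With a library left out, where a lone library is assumed to vary like the other group, log2 fold changes ran from 0.88 to 1.10 for Sall1, 0.21 to 1.42 for Foxd3, 0.15 to 0.70 for Dppa5a, 0.34 to 0.44 for L1td1, 0.065 to 0.36 for Sox2, -0.70 to 0.46 for Sall4 and -0.80 to 0.23 for Zfp296. Between 0 and 4 genes were called higher and between 0 and 2 lower, and the median lay between 0.21 and 0.30. Without random shRNA replicate 1, Sall1, Foxd3, L1td1 and Sall4 were called higher (7.03% of all genes); without random shRNA replicate 2, Sall1, Sox2, L1td1 and Dppa5a were called higher (15.6%) and Sall4 and Zfp296 lower (13.7%). With either MERVL shRNA library left out 0 were called. Where not stated, the cause was not tested. Counting error was at most 5.87% for the 10 genes.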

Other observations

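Of the 20 nearest coding genes on either side of the 10, 17 were tested and 0 called; 3 were higher without overlap between the groups (23.0% of all genes) and 1 was lower (21.8%). Zfp64, a zinc finger gene 125387 bp from Sall4, stood at 106.1 and 107 CPM with MERVL shRNA, against 80.4 and 72.6 CPM with random shRNA (log2 fold change 0.48 ± 0.13, edgeR adjusted p = 0.329). Triml2, a tripartite motif family gene 101181 bp from Zfp42, stood at 210.4 and 195 CPM, against 144 and 166 CPM (0.39 ± 0.15, edgeR adjusted p = 0.347). Kank4, 16417 bp from L1td1, stood at 27.5 and 30.5 CPM, against 22.8 and 20.9 CPM (0.41 ± 0.16, edgeR adjusted p = 0.350). These are the 3 that were higher, named after their values were seen. The coding genes on either side of Sall1, Cyld at 275289 bp and Tox3 at 1202877 bp, did not pass either: Cyld, the lower one, had 22.7 and 22.4 CPM, against 24.6 and 26.8 CPM, and Tox3 was near 1 CPM in every library.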
